A study of Mus musculus with 4 samples.

Results

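The genes that take glucose to lactate and the genes that answer to low oxygen were followed in dendritic cells grown from mouse bone marrow, either with or without Rbpj, the DNA-binding factor through which Notch receptors act on transcription. They were chosen as a list of 40 symbols, made of 2 glucose transporters, 17 glycolytic enzymes and their regulators, 3 genes of lactate export and pyruvate entry, 6 genes of oxygen sensing and 12 other targets of the hypoxia-inducible factors (HIF). All 40 were found among the 32496 genes and other targets on the array through the RefSeq accessions of the probes, 39 under the listed symbol and 1, Ero1l, under its current name Ero1a. Each gene is given by its probe with the highest mean over the arrays. A gene was tested if, in 1 genotype or the other, both arrays measured that probe well above background, and the 38 that passed did so on all 4 arrays, so that none passed through 1 genotype alone. The other two were targets of HIF. Adm, which encodes the vasodilator peptide adrenomedullin, was well above background on 1 array (-5.19 and -5.11 in control, -5.81 and -5.88 in Rbpj-deficient cells, as log2 of the signal over the 75th percentile of the array), and Mxi1, a partner of Max that opposes Myc, on 0 arrays.

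Glycolysis splits glucose to pyruvate in the cytosol, and lactate dehydrogenase and lactate export let it run fast without mitochondria. HIF is a pair of an oxygen-labile alpha subunit (Hif1a or Epas1) with Arnt. Prolyl hydroxylases of the Egln family mark the alpha subunit when oxygen is present, Vhl has it destroyed, and in low oxygen the surviving pair binds short core sequences near its target genes, many glycolytic genes among them. Dendritic cells are known to raise glycolysis when they are activated, and HIF is also induced in them without low oxygen.

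Bone marrow of 8-week-old female C57BL/6 mice was grown for 6 days with 20 ng/mL of GM-CSF, a growth factor that drives marrow cells towards dendritic cells and macrophages, and CD11c+ cells were taken for 1-colour arrays. The control cells (BMDC_RFF, 2 arrays) carried Rbpj fl/fl, 2 loxP-flanked alleles without Cre, and the Rbpj-deficient cells (BMDC_RFF11, 2 arrays) carried the same alleles with CD11c-cre. Cre was therefore driven by the promoter of the gene used for the isolation, no array held cells with Cre and an intact Rbpj, and loss of Rbpj and presence of Cre cannot be told apart. Each genotype's RNA was a pool from 4 mice. The labels do not say whether 1 pool or several gave the 2 arrays of a genotype, and p-values therefore cover only the spread between arrays, which may be technical.

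Every level is the log2 of a signal over its array's 75th percentile, so that 0 marks the brightness of that percentile, and levels of different probes are not compared with each other. The share of gene spots well above background was 55.2% on control replicate 1 and 57.7% to 58.4% on the rest. All 4 arrays lay on 1 slide. Rbpj stood at 2.69 and 2.61 on the control arrays and at 1.37 and 1.44 on the Rbpj-deficient arrays, a fall of 1.25 (SE 0.06, adjusted p = 0.0278, limma with Benjamini-Hochberg adjustment over 17967 genes). Itgax, which encodes CD11c, was bright on every array, at 6.69 and 6.63 in control and 6.65 and 6.45 in Rbpj-deficient cells. Of 16 markers of dendritic cells tested, 0 were called in either direction (limma; 4 had an unadjusted p under 0.05). Of 16 neutrophil markers tested, 4 rose in the Rbpj-deficient cells (Ngp, Mpo, Stfa2l1 and Stfa2), 0 fell and 12 were not called, where 1.04% of all genes tested rose and 0.84% fell. Uncalled members with a log2 change below 0, named after their values were seen, were Cebpe (-0.37), Elane (-0.14) and Mmp8 (-0.14). The summed signal of the list was 68.6 to 69.1 times the array's 75th percentile in control and 89.6 to 95.7 times in Rbpj-deficient cells. Such a sum weighs the brightest probes most. Among these Csf3r, S100a9 and S100a8 had log2 changes of 0.22, 0.85 and 0.83 and Mmp8 one of -0.14, and none of them was called. The listed neutrophil genes Mmp9, Retnlg and Fcnb were above background on no array. Of 16 markers of mature dendritic cells tested, 2 fell (Ccl5 and Il4i1), 0 rose and 14 were not called, and Cd200 (0.25), Cd86 (0.17) and Cd40 (0.09), also named after their values were seen, had log2 changes above 0. The summed signal of the list was 539 to 542 in control and 390 to 409 in Rbpj-deficient cells. Of 14 monocyte and macrophage markers tested, Marco rose and Fcgr1 and Trem2 fell, with a summed signal of 466 to 495 in control and 424 to 429 in Rbpj-deficient cells. Hdc rose and Siglecf fell among 8 markers of mast cells, basophils and eosinophils, Klrb1c rose among 7 lymphoid markers, and 0 of 5 erythroid markers were called (limma; 1 had an unadjusted p under 0.05).

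Of the 38 tested genes of glycolysis and the hypoxia response, 1 fell in the Rbpj-deficient cells, 0 rose and 37 did not pass the test (limma, adjusted p at or under 0.05 over 17967 genes). Over all genes tested, 0.84% fell and 1.04% rose (1.88% in either direction), so that 1 call among 38 lies near the background. At an unadjusted p under 0.05, 7 of the 38 were lower and 1 was higher, where 24.1% of all genes tested stood below that p in either direction. Of all 17967 genes, 2308 were lower and 2021 higher at that p. The median log2 change of the 38 genes was -0.10 against -0.01 for all genes tested, and 26 of them (68.4%) lay below 0, as did 52.7% of all genes tested. The 6 reference genes had a median of -0.09, with 5 below 0, so that a shift of this size was also seen in this small set. Gapdh, itself a glycolytic enzyme, is among the 6, with a log2 change of -0.08. With quantile normalization 22 of the 38 lay below 0, with a median of -0.05, and 4 of the 6 reference genes, with a median of -0.04. In 15 genes both Rbpj-deficient arrays were below both control arrays and in 3 both were above, together 47.4% of the 38, where 59.1% of all genes tested had genotypes that did not overlap. Other processing called more genes, 3 of the 38 and 4.98% of all genes with normexp background correction and 6 of the 38 and 8.62% of all genes with a trended and robust variance prior. In RNA from mixed cells, fewer cells of a type and less RNA per cell cannot be told apart.

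**Figure D1:**
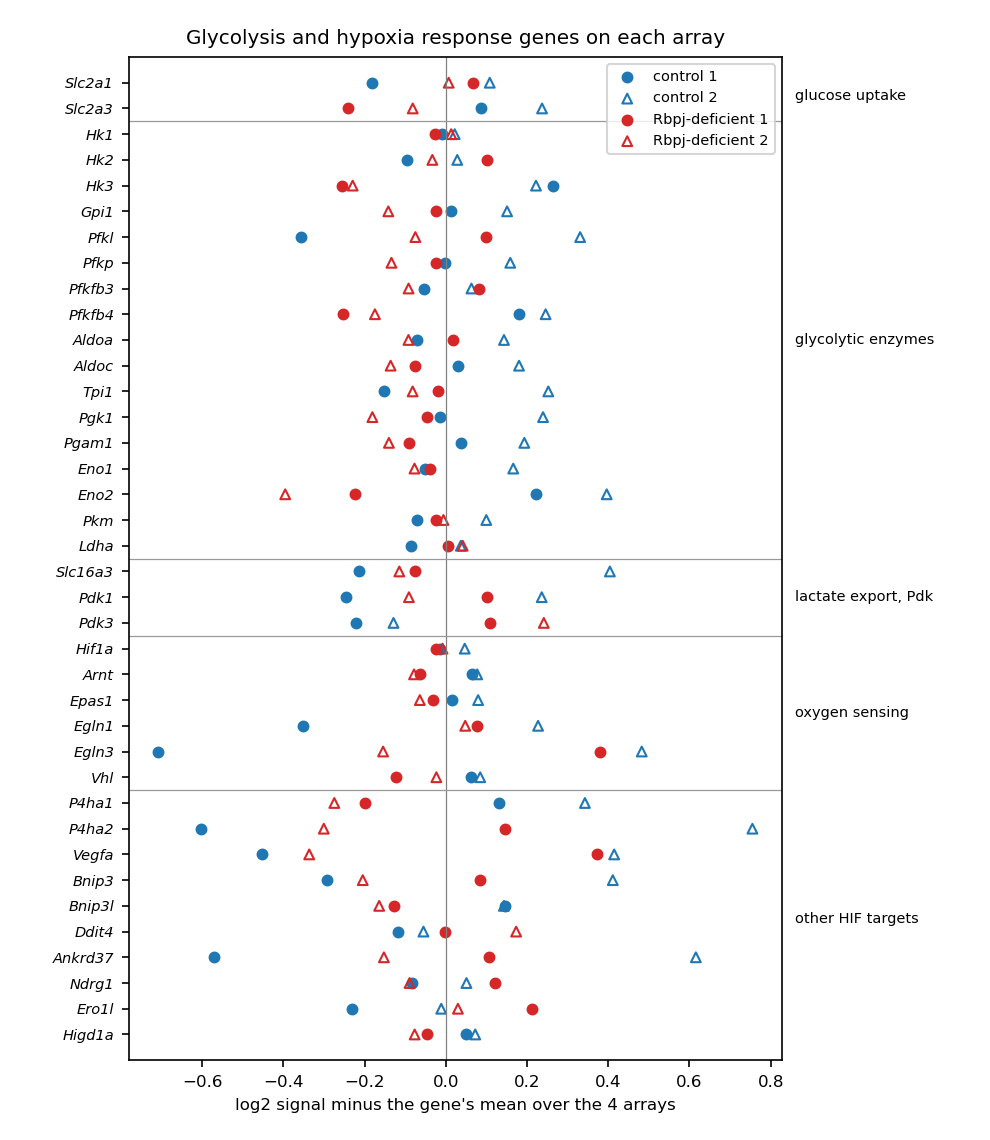
Level of the 38 tested genes on each of the 4 arrays (x axis, log2 signal minus the gene's own mean over the arrays; blue, control; red, Rbpj-deficient; circles, replicate 1; triangles, replicate 2), grouped by role. For Hk3 the blue and red points form separate pairs, while for P4ha2, Ankrd37, Egln3 and Vegfa the 2 control arrays are the lowest and the highest of the 4.

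**Figure D2:**
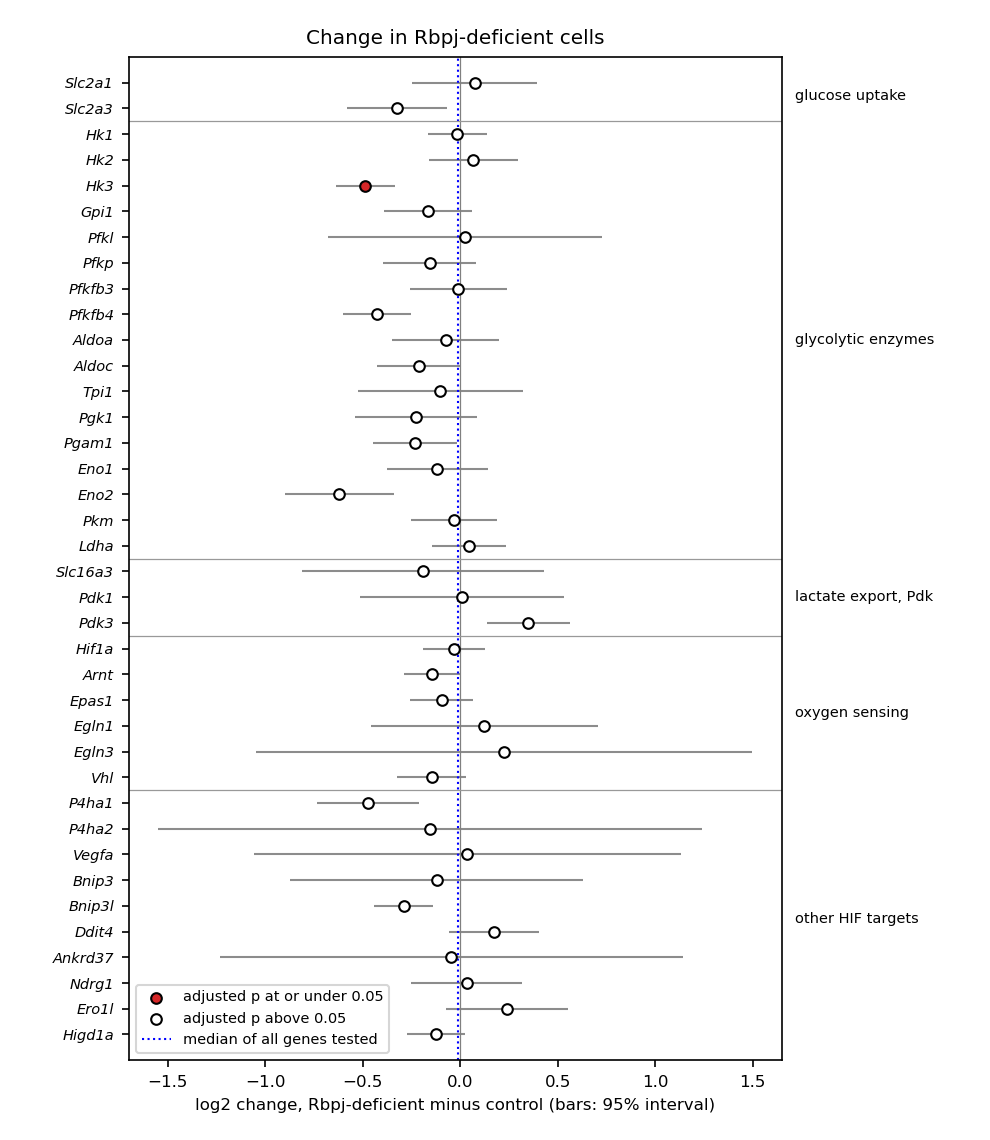
Log2 change in Rbpj-deficient against control cells for the 38 tested genes (points) with the 95% interval of the moderated fit (bars); filled red marks an adjusted p at or under 0.05 and the dotted line is the median of all genes tested, -0.01. Hk3 is the filled point, and the widest intervals belong to P4ha2, Egln3, Ankrd37 and Vegfa.

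Glucose enters through facilitative carriers of the Slc2a family. Slc2a1, the widely expressed carrier Glut1, stood at 2.39 and 2.68 on the control arrays and at 2.64 and 2.58 on the Rbpj-deficient arrays. The Rbpj-deficient arrays lay between the control arrays, and the log2 change of 0.07 (SE 0.12) had an adjusted p of 0.730 in limma. Slc2a3, the high-affinity carrier Glut3, was at -1.69 and -1.54 in control and at -2.02 and -1.86 in Rbpj-deficient cells. Both Rbpj-deficient arrays were the lower ones, with a log2 change of -0.32 (SE 0.09), and the limma test was not passed (adjusted p = 0.155).

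Hexokinases hold glucose in the cell by phosphorylating it, and 3 of them were measured. Hk3, an isoform found mainly in myeloid cells, stood at 1.60 and 1.56 on the control arrays and at 1.08 and 1.11 on the Rbpj-deficient arrays. The pairs were far apart compared with the spread inside each, and Hk3 fell by 0.49 on the log2 scale (SE 0.05, 95% interval -0.64 to -0.33), to 71.4% of the control level, with an adjusted p of 0.0477 in limma. The call was lost with quantile normalization (adjusted p = 0.0553), without the filter on dim probes (adjusted p = 0.299) and with any 1 array left out (adjusted p = 0.147 to 0.177), while the log2 change stayed between -0.51 and -0.45. In the same cells 4 of 16 neutrophil markers rose and 2 of 16 markers of mature dendritic cells fell, with summed signals of 68.6 to 69.1 against 89.6 to 95.7 and of 539 to 542 against 390 to 409. These sums weigh the brightest probes most, called or not. Of 14 monocyte and macrophage markers 1 rose and 2 fell, with summed signals of 466 to 495 against 424 to 429. Over all genes tested 1.04% rose and 0.84% fell. The part of these cell types in the Hk3 result was not tested. The other hexokinases gave different values. Hk1, the isoform of most tissues, was at 3.45 and 3.48 in control and at 3.43 and 3.47 in Rbpj-deficient cells, and its 95% interval of the log2 change ran from -0.17 to 0.14. Hk2, the isoform best known as inducible, was at 1.37 and 1.50 in control and at 1.57 and 1.44 in Rbpj-deficient cells, with an interval from -0.16 to 0.30, so that in both genes the 2 genotypes overlapped.

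Phosphofructokinase is the main control point of the pathway, and the bifunctional enzymes of the Pfkfb family set the level of its activator, fructose 2,6-bisphosphate. Pfkfb4 stood at 1.97 and 2.04 on the control arrays and at 1.54 and 1.62 on the Rbpj-deficient arrays. Both Rbpj-deficient arrays were lower, by a log2 change of -0.43 (SE 0.06), which narrowly missed the threshold in limma (adjusted p = 0.0640). Pfkfb3, the more strongly activating member of that family, was at 1.54 and 1.65 in control and at 1.67 and 1.50 in Rbpj-deficient cells, and the genotypes overlapped. The subunits of phosphofructokinase itself were Pfkl, with -0.10 and 0.58 in control and 0.35 and 0.18 in Rbpj-deficient cells, and Pfkp, with 2.72 and 2.88 against 2.70 and 2.59. In Pfkl the control arrays were the lowest and the highest of the 4, and its log2 change was 0.02 (SE 0.25), whereas in Pfkp both Rbpj-deficient arrays lay just below the control arrays, with a change of -0.16 (SE 0.09).

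None of the enzymes of the remaining steps, from the isomerase to pyruvate kinase, passed the test. Eno2, the enolase known from neurons and also a target of HIF, stood at -2.54 and -2.37 on the control arrays and at -2.99 and -3.16 on the Rbpj-deficient arrays. The Rbpj-deficient pair was the lower, and the change of -0.62 (SE 0.10), the lowest of the 38, was not called (adjusted p = 0.0694, limma). With normexp background correction the Eno2 change was called at -0.455, against -0.460 for Hk3, so that this rank depends on the processing. Eno1, the enolase of most cells, was at 6.46 and 6.68 in control and 6.47 and 6.43 in Rbpj-deficient cells, a change of -0.12 with overlapping genotypes. Pgk1, which makes ATP from 1,3-bisphosphoglycerate, was at 5.46 and 5.71 in control and 5.43 and 5.29 in Rbpj-deficient cells, and Pgam1, the mutase of the next step, at 5.64 and 5.80 against 5.51 and 5.46. Both changed by -0.23, and the 2 Rbpj-deficient arrays were the lower ones in each, without passing the test (adjusted p of 0.313 and 0.188 in limma). Aldoc, Gpi1 and Pfkp were the remaining enzymes in which both Rbpj-deficient arrays were below both control arrays. Aldoc, an aldolase, had a log2 change of -0.21 (adjusted p = 0.211, limma), and Gpi1, the isomerase, one of -0.16 (adjusted p = 0.311). The mean of the Gpi1 probes gave a change of -0.08.

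In 9 of the 17 enzymes the genotypes overlapped. They did not in 47.1% of the 17, where 59.1% of all genes tested had genotypes that did not overlap. Aldoa, the aldolase best known from muscle, was at 7.65 and 7.86 in control and at 7.74 and 7.63 in Rbpj-deficient cells. Tpi1, triosephosphate isomerase, was at 4.86 and 5.27 in control and at 5.00 and 4.93 in Rbpj-deficient cells. Pkm, pyruvate kinase, was at 4.85 and 5.02 in control and at 4.90 and 4.92 in Rbpj-deficient cells, and for both Tpi1 and Pkm the Rbpj-deficient arrays fell between the control arrays. Ldha, the lactate dehydrogenase subunit that favours lactate, was at 7.29 and 7.41 in control and at 7.38 and 7.41 in Rbpj-deficient cells, and its 95% interval of the log2 change ran from -0.14 to 0.24. Over the 17 enzymes, 1 fell, 0 rose, 14 had a log2 change below 0 and the median was -0.12, with a range from -0.62 to 0.07. Over all genes tested, 0.84% fell, 1.04% rose, 52.7% lay below 0 and the median was -0.01. Of the 6 reference genes, 5 lay below 0, with a median of -0.09. Of 31 tested genes of glycolysis, gluconeogenesis and the pentose phosphate pathway outside the 40, 20 lay below 0, with a median of -0.10. Gapdh is in both of these sets. With quantile normalization 10 of the 17 lay below 0 and the median was -0.06.

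Past pyruvate, 0 of the 3 genes of lactate export and of the mitochondrial gate were called (limma; 1, Pdk3, had an unadjusted p under 0.05). The shares of all genes tested were 1.88% called and 24.1% at that unadjusted p. Pdk3, a kinase that shuts the pyruvate dehydrogenase complex, stood at 0.86 and 0.95 on the control arrays and at 1.19 and 1.32 on the Rbpj-deficient arrays. The Rbpj-deficient pair was the higher, with a log2 change of 0.35 (SE 0.08, 95% interval 0.14 to 0.56), the highest of the 38, and an adjusted p of 0.104 in limma. Pdk1, a kinase of the same complex and a target of HIF, was at -0.91 and -0.43 in control and at -0.57 and -0.76 in Rbpj-deficient cells. Slc16a3, the lactate exporter Mct4, was at 3.79 and 4.41 in control and at 3.93 and 3.89 in Rbpj-deficient cells, and in both of these genes the Rbpj-deficient arrays lay inside the span of the control arrays.

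The genes of oxygen sensing itself showed no call (0 of 6, limma; 0 of 6 also had an unadjusted p under 0.05), and their median log2 change was -0.06. Among all genes tested 1.88% were called and 24.1% stood below that unadjusted p. Hif1a was at 0.71 and 0.77 in control and at 0.70 and 0.71 in Rbpj-deficient cells. The 4 arrays spanned little, and the 95% interval of its log2 change ran from -0.19 to 0.13. Epas1, the alpha subunit HIF-2, was at 1.40 and 1.46 in control and at 1.35 and 1.32 in Rbpj-deficient cells, and Arnt at 0.51 and 0.52 against 0.38 and 0.37. In both, and in Vhl with 2.40 and 2.42 against 2.21 and 2.31, the Rbpj-deficient arrays lay below the control arrays, with log2 changes of -0.10 for Epas1, -0.14 for Arnt and -0.15 for Vhl. A further Epas1 probe of the array gave a change of 0.19, so that the direction for Epas1 depends on the probe.

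In the prolyl hydroxylases Egln1 and Egln3 the 2 control arrays were further apart than the means of the genotypes. Egln3, which HIF itself induces, was at -1.71 and -0.52 on the control arrays and at -0.62 and -1.16 on the Rbpj-deficient arrays. The control arrays were the lowest and the highest, 2.28-fold apart, and the log2 change of 0.22 had a 95% interval from -1.05 to 1.50. Egln1, the main hydroxylase in most cells, was at -4.23 and -3.66 in control and at -3.81 and -3.83 in Rbpj-deficient cells, so that here too the Rbpj-deficient arrays lay within the span of the control arrays. The Egln1 probe was dim, and its log2 change was 0.12, or -0.01 with normexp background correction.

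Among the other targets of HIF, 0 of 10 tested were called (limma; 2 had an unadjusted p under 0.05, both lower), and the median log2 change was -0.08. For all genes tested these shares were 1.88% called and 24.1% below that unadjusted p. P4ha1, a subunit of collagen prolyl 4-hydroxylase, stood at -0.42 and -0.21 on the control arrays and at -0.75 and -0.82 on the Rbpj-deficient arrays. Both Rbpj-deficient arrays were lower, by a log2 change of -0.47 (SE 0.09, adjusted p = 0.0908, limma), and the second probe for the gene gave -0.25. Bnip3l, a receptor for the removal of mitochondria, stood at 3.80 and 3.79 in control and at 3.52 and 3.48 in Rbpj-deficient cells. Again the genotypes did not overlap, with a log2 change of -0.29 (SE 0.05, adjusted p = 0.0819, limma), and its 4 probes gave changes from -0.29 to -0.17. Higd1a, a mitochondrial protein of the hypoxia response, was the third with lower Rbpj-deficient arrays, at 3.08 and 3.10 against 2.98 and 2.95.

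In 2 of these 10 targets both Rbpj-deficient arrays lay above the control arrays, where 26.8% of all genes tested had this order. Ero1l, an oxidase that drives disulphide formation in the endoplasmic reticulum, was at -2.25 and -2.03 in control and at -1.80 and -1.99 in Rbpj-deficient cells, a log2 change of 0.24 (SE 0.11, adjusted p = 0.285, limma). Ddit4, an inhibitor of mTORC1 signalling, was at 0.33 and 0.39 in control and at 0.44 and 0.62 in Rbpj-deficient cells, a change of 0.17 (SE 0.08, adjusted p = 0.301). Neither difference passed the test.

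The 5 targets left had overlapping genotypes, and in 4 of them the control arrays lay on either side of the Rbpj-deficient ones. Vegfa, the angiogenic growth factor, was at -0.67 and 0.19 in control and at 0.15 and -0.56 in Rbpj-deficient cells. P4ha2, the second collagen hydroxylase, was at -5.50 and -4.14 in control and at -4.75 and -5.19 in Rbpj-deficient cells. Ankrd37, a small ankyrin-repeat protein, was at -0.78 and 0.41 in control and at -0.10 and -0.36 in Rbpj-deficient cells. In each of these the highest array was control replicate 2 and the lowest control replicate 1. Bnip3, a relative of Bnip3l in mitochondrial removal, followed the same order, at 2.77 and 3.47 in control and at 3.15 and 2.86 in Rbpj-deficient cells. Ndrg1, a stress-response gene, was at 3.38 and 3.52 in control and at 3.59 and 3.38 in Rbpj-deficient cells. The 95% intervals of the log2 change were wide for Vegfa, from -1.06 to 1.13, and for P4ha2, from -1.55 to 1.24. That of Ndrg1 was narrower, from -0.25 to 0.32. Changes inside these intervals were not detectable with 2 arrays a genotype.

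Glycolytic enzymes and other targets of HIF were next set beside each other. Their median log2 changes in Rbpj-deficient cells, -0.12 and -0.08, were close, and both lists held values on each side of 0. Both Rbpj-deficient arrays were below both control arrays in 8 of 17 enzymes and in 3 of 10 HIF targets, where 32.3% of all genes tested were, and above them in 0 of 17 and in 2 of 10, where 26.8% of all genes tested were. The difference between the lists was not tested. Leaving out control replicate 1 gave medians of -0.24 for the enzymes and -0.34 for the HIF targets. Leaving out control replicate 2 gave -0.01 and 0.22, so that the sign for the HIF targets turned on which control array was used. For the HIF targets the median was -0.22 with Rbpj-deficient replicate 1 left out and 0.08 with replicate 2 left out.

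The arrays of one genotype differed in these genes. Control replicate 2 was above control replicate 1 in 36 of the 38 genes (94.7%), where 50.8% of all genes tested were, by a median of 0.16 on the log2 scale against 0.00. Rbpj-deficient replicate 1 was above Rbpj-deficient replicate 2 in 28 of the 38, by a median of 0.06, where 50.8% of all genes tested were. Both held for 27 genes (71.1%), compared with 26.6% of all genes tested. Control replicate 2 was the highest of the 4 arrays in 29 of the 38 genes, against 27.1% of all genes tested, and control replicate 1 the lowest in 17, against 23.4%. In 12 of the 38 (31.6%) both Rbpj-deficient arrays lay between the control arrays, against 9.45% of all genes tested. Replicates have no order, and the numbers only name the arrays, so that the direction of each comparison is a choice and sets which count is the majority.

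**Figure D3:**
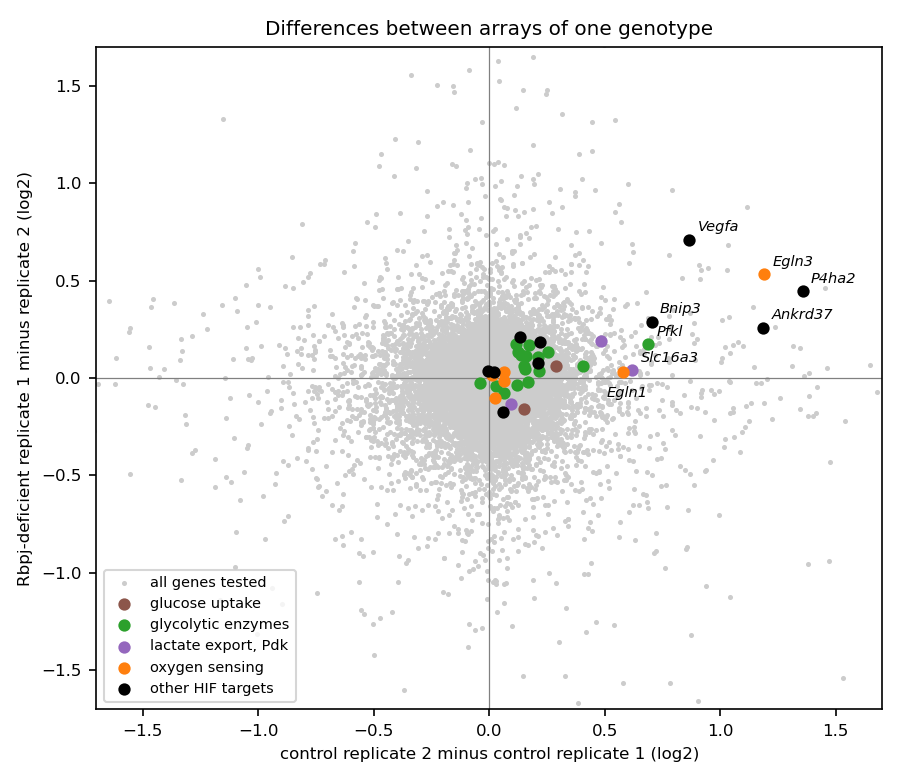
Difference between the 2 control arrays (x axis, log2, replicate 2 minus 1) against the difference between the 2 Rbpj-deficient arrays (y axis, log2, replicate 1 minus 2) for each of 17967 genes (grey) and the 38 tested genes by role (colours). 66 genes lie outside the axes; Egln3, P4ha2, Vegfa, Bnip3 and Ankrd37 lie in the upper right, more than 0.25 from 0 on both axes.

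The control arrays were more than 0.5 apart, with replicate 2 the higher, in 4 of 10 HIF targets (P4ha2, Ankrd37, Vegfa and Bnip3), in Egln3 and Egln1, in Slc16a3 and, of the 17 enzymes, in Pfkl alone. That made 8 of 38 genes (21.1%), where the control arrays of 3.87% of all genes tested were that far apart in either direction. The control level was 2.56-fold higher in replicate 2 for P4ha2, 2.28-fold for Egln3 and Ankrd37, 1.82-fold for Vegfa and 1.63-fold for Bnip3. P4ha2 was dim, at -5.50 and -4.14 on the control arrays, so that its fold, the largest here, rests on weak signals. Egln1 was dim as well, at -4.23 and -3.66. Control replicate 1 also had the lowest share of gene spots well above background. Separate probes gave like differences between the control arrays, 0.70, 0.68 and 0.57 for the 3 probes of Bnip3, 1.19 and 1.11 for the 2 of Egln3, and 0.87 and 0.72 for the 2 of Vegfa. In the same 5 genes Rbpj-deficient replicate 1 was more than 0.25 above replicate 2, with both differences past 0.25 in 13.2% of the 38 genes and 0.974% of all genes tested. Across the 38 genes the 2 within-genotype differences had a Pearson correlation of 0.75, which is a description over genes that share the same 4 arrays. Its sign follows from subtracting in opposite replicate order in the 2 genotypes. Over all genes tested, deviations of same-numbered arrays, which turn that sign, correlated at -0.05.

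The enzymes and the other HIF targets are given side by side, without a test between the lists. Control replicate 2 was the higher control array in 16 of 17 enzymes, by a median of 0.16, the exception being Hk3, and in 9 of 10 HIF targets, by a median of 0.22, the exception being Bnip3l. Rbpj-deficient replicate 1 was the higher of its pair in 12 of 17 enzymes, by a median of 0.06, and in 9 of 10 HIF targets, by a median of 0.20, the exception being Ddit4. As a median deviation from each gene's own mean, the HIF targets stood at -0.17 and 0.24 in control and at 0.10 and -0.16 in Rbpj-deficient cells, and the enzymes at -0.01 and 0.17 and at -0.02 and -0.09. Among the 6 reference genes the differences between the control arrays ran from -0.08 to 0.12, with Gapdh, itself a glycolytic enzyme, at 7.78 and 7.85 in control and 7.74 and 7.73 in Rbpj-deficient cells. Monocyte and macrophage markers also tended to this order, with control replicate 2 the higher in 12 of 14 and Rbpj-deficient replicate 1 the higher in 12 of 14, by medians of 0.11 and 0.07, and their part in the result was not tested. Neutrophil markers were higher on control replicate 2 in 12 of 16 but on Rbpj-deficient replicate 1 in 4 of 16.

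**Figure D4:**
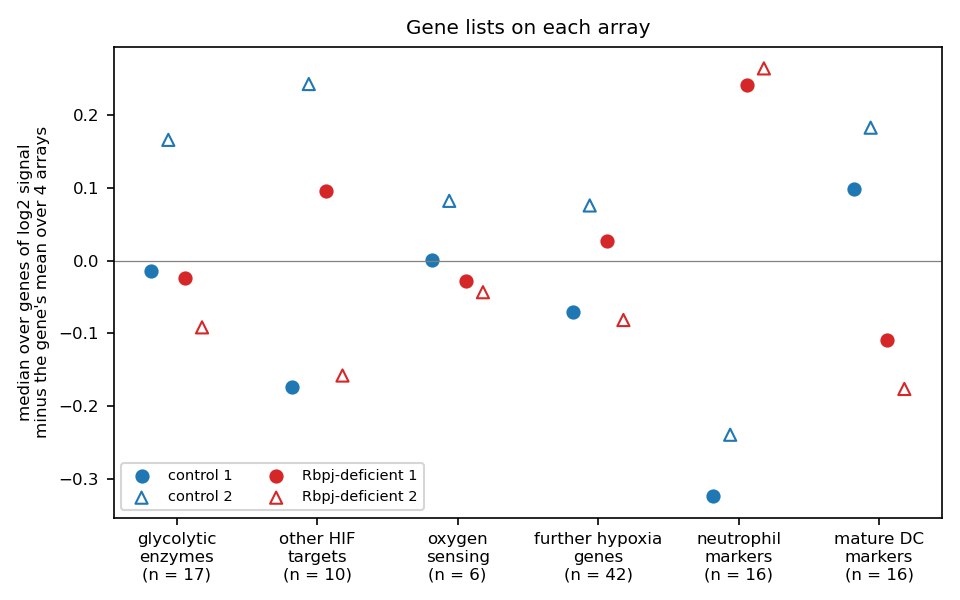
Median over the genes of 6 lists of the log2 signal minus each gene's mean over the 4 arrays (y axis), by array (blue, control; red, Rbpj-deficient; circles, replicate 1; triangles, replicate 2). For the other HIF targets the control arrays, at -0.17 and 0.24, enclose the Rbpj-deficient arrays, while for the neutrophil markers both red points lie above both blue points.

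Promoter sequences are shown for the genes with the 2 highest and the 2 lowest test statistics, and for the 3 with the largest difference between the control arrays, the latter chosen after their values were seen. They are RefSeq sequences of GRCm38.p6 from 250 bases before to 50 after the start of the gene, on the strand of the gene, and capitals mark the HIF core letters ACGTG or GCGTG on either strand, overlapping matches included. Pdk3, with the highest statistic, lies at chrX:93832101-93832400 on the minus strand and holds 4 matches. Ero1l (Ero1a), the next, lies at chr14:45318523-45318822 on the minus strand and holds 3.
Pdk3: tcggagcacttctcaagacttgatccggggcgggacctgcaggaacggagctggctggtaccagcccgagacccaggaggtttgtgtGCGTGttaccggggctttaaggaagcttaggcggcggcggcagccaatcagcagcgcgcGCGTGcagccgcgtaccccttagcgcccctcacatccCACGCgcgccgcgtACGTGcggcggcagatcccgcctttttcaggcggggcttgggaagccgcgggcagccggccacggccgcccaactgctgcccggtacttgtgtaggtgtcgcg
Ero1l: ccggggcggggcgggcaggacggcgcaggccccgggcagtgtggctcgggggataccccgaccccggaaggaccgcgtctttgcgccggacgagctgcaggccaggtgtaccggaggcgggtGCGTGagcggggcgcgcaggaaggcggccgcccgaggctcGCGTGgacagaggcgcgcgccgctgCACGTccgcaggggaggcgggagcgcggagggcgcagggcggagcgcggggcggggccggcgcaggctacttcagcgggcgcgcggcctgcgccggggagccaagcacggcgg
Hk3, at chr13:55021336-55021635 on the minus strand, and Pfkfb4, at chr9:108991652-108991951 on the plus strand, had the lowest statistics and hold 1 match each.
Hk3: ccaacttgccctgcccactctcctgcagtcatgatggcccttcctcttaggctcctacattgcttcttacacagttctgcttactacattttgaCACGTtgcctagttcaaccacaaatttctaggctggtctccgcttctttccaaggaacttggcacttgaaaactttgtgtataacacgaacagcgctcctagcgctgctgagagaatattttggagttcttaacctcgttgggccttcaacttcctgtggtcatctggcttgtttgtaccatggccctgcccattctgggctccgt
Pfkfb4: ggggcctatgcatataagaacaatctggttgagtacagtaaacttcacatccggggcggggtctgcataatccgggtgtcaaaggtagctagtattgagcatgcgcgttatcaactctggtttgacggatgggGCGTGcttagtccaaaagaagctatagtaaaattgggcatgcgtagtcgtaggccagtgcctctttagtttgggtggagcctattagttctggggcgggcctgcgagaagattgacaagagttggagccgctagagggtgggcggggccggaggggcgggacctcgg
Of the 3 genes that differed most between the control arrays, P4ha2, at chr11:54100674-54100973 on the plus strand, and Ankrd37, at chr8:45999801-46000100 on the minus strand, hold 4 matches each. Egln3, at chr12:54203825-54204124 on the minus strand, holds 1.
P4ha2: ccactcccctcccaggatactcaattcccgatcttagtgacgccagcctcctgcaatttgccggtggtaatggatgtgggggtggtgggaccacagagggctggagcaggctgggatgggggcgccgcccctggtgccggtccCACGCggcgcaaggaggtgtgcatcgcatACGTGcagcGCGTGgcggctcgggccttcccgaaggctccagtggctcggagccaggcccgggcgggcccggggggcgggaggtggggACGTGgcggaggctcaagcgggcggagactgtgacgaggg
Egln3: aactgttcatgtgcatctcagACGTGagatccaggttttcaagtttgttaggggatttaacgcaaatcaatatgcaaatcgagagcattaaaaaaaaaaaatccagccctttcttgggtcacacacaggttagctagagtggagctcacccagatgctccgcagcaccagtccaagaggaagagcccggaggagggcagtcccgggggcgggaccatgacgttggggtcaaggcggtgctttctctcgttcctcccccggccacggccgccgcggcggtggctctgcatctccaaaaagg
Ankrd37: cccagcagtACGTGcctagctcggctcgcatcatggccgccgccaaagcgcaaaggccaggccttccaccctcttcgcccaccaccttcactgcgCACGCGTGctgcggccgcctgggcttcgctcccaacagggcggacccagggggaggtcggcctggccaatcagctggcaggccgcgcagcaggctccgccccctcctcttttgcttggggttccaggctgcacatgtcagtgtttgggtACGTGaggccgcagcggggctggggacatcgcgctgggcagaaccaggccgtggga

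RefSeq promoters were matched for 36 of the 40 genes, with 49 promoters in all, and Slc2a3, Epas1, Bnip3l and Ndrg1 had no entry. A HIF core was in 39 of the 49 (79.6%), belonging to 32 of the 36 genes, and in 43.8% of all 32851 promoters of that length. The list was drawn up from known HIF targets and genes of the pathway, and the promoters were not matched for base composition, so that these shares are not a test. The core letters TGGGAA of the Rbpj binding site, searched on both strands without regard to the HIF cores, were in 11 of the 49 (22.4%). These belonged to 7 of the 36 genes, and 25.6% of all promoters held the letters. Among the 7 promoters shown, TGGGAA was in that of Pdk3 alone. A match describes letters in the window and not a bound site.

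Further genes of both pathways were read from lists of genes outside the 40. Of 53 further hypoxia genes, 42 were tested. Where 1.04% of all genes tested rose and 0.84% fell, 1 of the 42 rose and 0 fell, which lies near that background. The gene was Angptl4, a secreted inhibitor of lipoprotein lipase, at 0.40 and 0.36 in control and at 1.21 and 1.21 in Rbpj-deficient cells (log2 change 0.83, SE 0.06, adjusted p = 0.0322, limma). The median change of the 42 was -0.03, control replicate 2 was the higher control array in 30 and Rbpj-deficient replicate 1 the higher of its pair in 33. Ak4, a mitochondrial adenylate kinase picked after its values were seen, had the order of P4ha2 and Vegfa, at -2.68 and -0.58 in control and at -1.63 and -2.29 in Rbpj-deficient cells. Of 36 further genes of glycolysis, gluconeogenesis and the pentose phosphate pathway, 31 were tested and 0 were called (limma; 5 had an unadjusted p under 0.05, all lower). Their median log2 change was -0.10, and the one with the largest statistic was Slc2a9, a urate and hexose carrier, with a change of -0.55 (SE 0.10, adjusted p = 0.0814). In this list control replicate 2 was the higher control array in 19 of 31 and Rbpj-deficient replicate 1 the higher of its pair in 15 of 31, both near the 50.8% of all genes tested.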

How the data were processed

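RNA from CD11c+ marrow-derived cells, pooled from 4 mice per genotype, was labelled with Cy3 and hybridised to 1-colour Agilent mouse arrays (150 ng each), per the labels' protocols. The deposited spot intensity is the processed signal of Agilent Feature Extraction 10.7.1.1, named in the submitters' processing notes; background was subtracted and a spatial trend removed per the file headers. The authors' deposited table holds normalised log2 values whose steps are not given in the sources used here. Against the scanner signal its columns correlated at 0.99995 to 0.99997, with medians of 0.0531, -0.0305, -0.0340 and 0.0201, in the same direction and centred per probe, and it served as an alternative.

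Here log2 intensities had the 75th percentile of the array's gene spots subtracted, outlier spots (127 to 176 of 43020 per array) were left out, 0 were saturated, and spots of a probe were averaged. The probe with the highest mean stood for a gene, and it was tested if both arrays of either genotype had it well above background. The comparison of genotypes used limma 3.58.1 (lmFit, then eBayes, R 4.3.3), adjusted by Benjamini-Hochberg over 17967 genes, threshold 0.05; the fit was tested on simulated data. Precision is limited by 2 arrays a genotype. SE is that of the moderated fit. Of 39429 probes, 26055 had 1 symbol and 13374 none; RefSeq GRCm38.p6 gave names and promoters, as the file headers give mm9 for the array annotation. Python 3.11.15, numpy 2.4.6, pandas 2.3.3 and matplotlib 3.10.9 were used for counting and drawing. No column belonged to another sample (0 left out).

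The 40 genes and all further lists were chosen with earlier results of these data known. Named were all 40, Rbpj, Itgax, reference genes, list genes past the threshold, and otherwise the one with the largest statistic; sequences were shown for the 2 highest and 2 lowest statistics. Alternatives were normexp background (offset 50, on median signals, since the mean signal planned for it is not a column used here), quantile or median scaling, other filters, the mean of a gene's probes, the deposited table, another variance prior, leaving out each array, and the replicate number as a block.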

Additional observations from a re-analysis of the deposited data

How the results depend on the processing

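Over all genes 338 were called, and 325 to 470 with quantile or median scaling, the filter on all 4 arrays, the mean of a gene's probes or the deposited table. The count was 894 with normexp background, 1548 with a trended and robust variance prior, 0 without a filter on dim probes (limma; 3654 had an unadjusted p under 0.05) and 0 to 1 with 1 array left out, where the lone array is assumed to vary like the other pair. Of the 38 tested genes of glycolysis and the hypoxia response 1 was called, Hk3, and also 1 with median scaling, the filter on all 4 arrays, the mean of a gene's probes and the deposited table. With normexp 3 were called (Hk3, Eno2 and Pfkfb4, all lower) and with the trended and robust prior 6 (Hk3, Eno2, Pfkfb4, P4ha1 and Bnip3l lower, Pdk3 higher), where 4.98% and 8.62% of all genes were called; 0 were called with quantile normalization, without the filter, or with 1 array left out (0 to 0). The cause of these moves was not tested. Rbpj and Angptl4 also lost their calls in these fits other than quantile normalization, with log2 changes of -1.29 to -1.21 and 0.81 to 0.85. The median log2 change with 1 array left out ran from -0.23 to 0.041 for the 38 genes, from -0.24 to -0.0081 for the enzymes and from -0.34 to 0.22 for the other HIF targets; the extremes came without control replicate 1 and without control replicate 2. The replicate number does not pair the arrays by the labels, and deviations of same-numbered arrays correlated at -0.05; with it as a replicate block 0 genes were called (3677 with an unadjusted p under 0.05), hence 0 of the 38, and Hk3 had an adjusted p of 0.123 in limma. Hk3, Rbpj and Angptl4 kept their sign under each of these alternatives, while uncalled genes of the 38 changed sign in up to 9 cases when 1 array was left out and in up to 4 under the others. An alternative added after the data were seen, other scalings of the differences between arrays of a genotype, left control replicate 2 the higher control array in 9 to 10 of 10 HIF targets and 16 to 17 of 17 enzymes, and Rbpj-deficient replicate 1 the higher of its pair in 9 of 10 and in 11 to 16 of 17. The highest enzyme counts came with median scaling, where 11681 and 12288 of all 17967 genes tested had these orders. The other scalings gave 7943 to 9121 and 8431 to 10010. Dim probes limit Adm and Mxi1, which were not well above background on enough arrays to be tested.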
